A study of Danio rerio with 15 samples.

Results

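Melanomas of zebrafish (Danio rerio) of a mitf-BRAFV600E line were compared with skin of wild-type fish. The 9 arrays were chosen by their titles, 6 of melanoma and 3 of wild-type skin, out of 15 in the series. In this line the promoter of mitf, a gene of pigment cells, drives a transgene of mutant human BRAF, and the fish also carry a further allele that is not named here. The wild-type fish were of the Tu strain and carried neither change, so melanoma and wild-type skin differ in tissue and in genotype at once, and these cannot be told apart. Fish were 4 to 8 months old, a melanoma was cut out once it could be seen, and the wild-type pieces came from the length of the flank. The remaining 6 arrays hold skin next to a melanoma from fish of the melanoma line, here called mutant skin. Their levels are given beside those of the comparison, and they share the estimate of the spread. The labels give no sex, batch or date and do not state that the samples of a group came from separate fish, so a p-value measures the spread between these samples.

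Melanocytes, the black pigment cells, descend from the neural crest, a cell population at the edge of the embryonic neural tube. The transcription factor Mitf turns on their pigment enzymes, and sox10 acts upstream of mitfa. Mutant BRAF keeps the MAPK signalling cascade active, and active MAPK signalling raises a set of transcription factors of the ETS family and its own inhibitors. Zebrafish carry further pigment cells from the crest, the yellow xanthophores and the reflecting iridophores. Skin holds keratinocytes, mucous cells, ionocytes and scales besides pigment cells, and a cut piece may reach the muscle beneath.

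All values are log2 values relative to an unstated reference for each probe set, so groups can be compared for 1 gene and genes cannot be ranked by level. The lowest value, -6.64, is a floor, and a gene with arrays at the floor has a bound for its change. The number of arrays limits the precision, with standard errors of a gene's change at a median of 0.49. Array medians did not separate the groups, at -0.317 to 0.1 (difference -0.0641, two-sided exact permutation p = 0.595 over 84 arrangements).

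Melanoma 6 stood apart from the other melanomas. With probe sets centred on their means, melanoma 1 to 5 had correlations of 0.635 to 0.809 with each other across probe sets. Melanoma 6 had correlations of -0.451 to -0.350 with them and of 0.611, -0.075 and -0.524 with wild-type skin 1, 2 and 3. Its correlations with mutant skin ranged from -0.584 to 0.855. These correlations describe the arrays only, since probe sets are not independent. Transcripts of the oocyte were high in melanoma 6 and in part of the wild-type and mutant skin arrays. Averaged over 34 genes of the oocyte list, the centred value stood at 3.91 for melanoma 6 and between -2.95 and -2.71 for melanoma 1 to 5. It was 3.76, 1.39 and -1.90 for wild-type skin 1, 2 and 3, and ranged from -2.26 to 4.52 in mutant skin. The yolk precursor gene vtg2 was at 11.20 in melanoma 6 and 6.67 in wild-type skin 2, and at -1.63 to -0.27 in the other 7 arrays of melanoma and wild-type skin. Melanoma 6 nevertheless lay above all wild-type arrays for 6 melanocyte genes, as given below, and every result was computed again without it.

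At the level of genes, 821 of 8793 rose in melanoma (9.34%) and 658 fell (7.48%) at a Benjamini-Hochberg adjusted p under 0.05 in limma's moderated test. Of these, 796 and 640 changed at least 2-fold. Without melanoma 6 the counts were 1205 raised (13.7%) and 811 lowered (9.22%), and 813 (9.25%) and 634 (7.21%) genes passed both times in the same direction. Over single probe sets the shares were 7.46% raised and 6.36% lowered, and 11.9% and 8.10% without melanoma 6. The 6 melanoma arrays did not overlap with the 3 wild-type arrays for 1593 genes (18.1%), of which 799 were higher in melanoma (9.09% of all) and 794 lower (9.03%). Over all genes the median change was -0.02. The counts depended on the wild-type arrays: 568 genes passed without wild-type skin 2 and 576 without wild-type skin 3. In bulk tissue, fewer cells of a type and less RNA per cell cannot be told apart, and this holds for each result below.

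**Figure D1:**
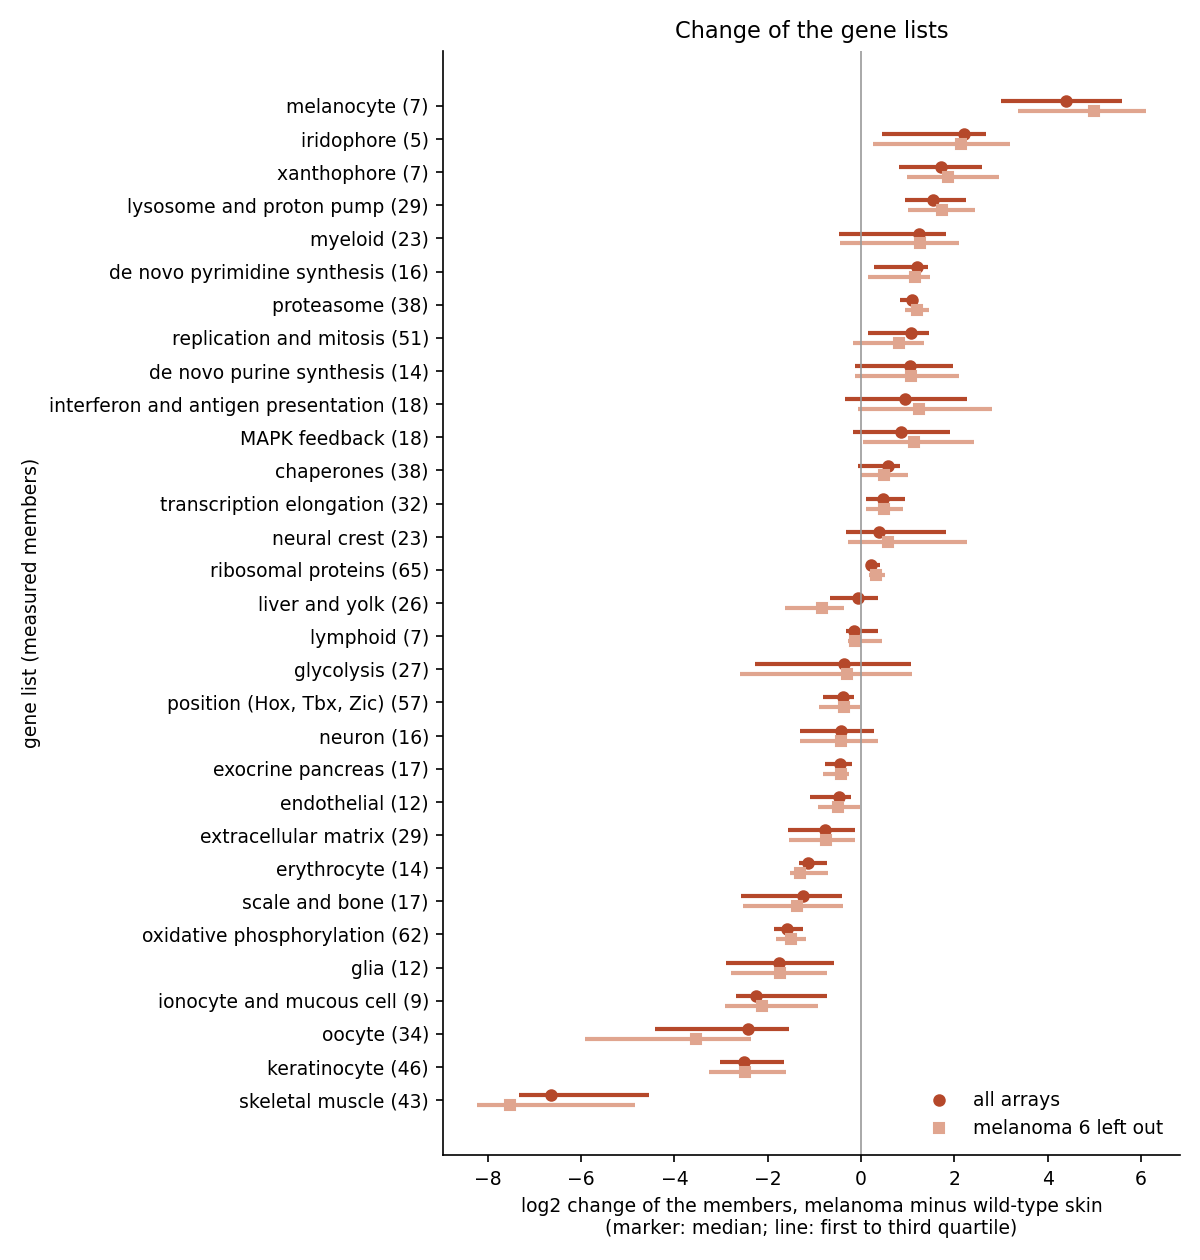
Change of the gene lists, melanoma minus wild-type skin, in log2 units. Markers show the median over the measured members (number in brackets), lines the range between the quartiles, with all arrays and with melanoma 6 left out. The melanocyte list had the highest median, 4.40, and the skeletal muscle list the lowest, -6.65.

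Melanocyte genes rose together. Of 7 measured genes of the list, 6 rose (85.7%, against 9.34% of all genes) and 0 fell, with a median change of 4.40, or 5.00 without melanoma 6. The regulator mitfa read 2.28, 2.68, 3.1, 3.36, 2.78 and -0.40 in melanoma 1 to 6, against -5.23, -4.08 and -4.45 in the wild-type arrays. The groups did not overlap, melanoma 6 was the lowest melanoma, and the change was 6.89 ± 0.90 (SE, adjusted p = 0.000689), or 118-fold. Mutant skin had a median of -4.05.

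The pigment enzyme genes moved with it. The gene dct, which codes for dopachrome tautomerase, was at 2.51 to 6.45 in melanoma 1 to 5, at 0.79 in melanoma 6 and at -3.25 to -2.16 in wild-type skin, a 91.4-fold rise (6.51 ± 1.02, adjusted p = 0.00148). Tyrosinase, the enzyme of the opening step of melanin synthesis, is encoded by tyr, which was at 3.45 to 4.24 in melanoma 1 to 5, at 0.11 in melanoma 6 and at -1.64 to -0.76 in wild-type skin (21.1-fold, adjusted p = 0.00255). For both genes even the lowest melanoma, melanoma 6, lay above each wild-type array. The melanocortin receptor gene mc1r rose by 4.67 ± 0.72 on the log2 scale (adjusted p = 0.00138), with a lowest melanoma value of -0.93 and a highest wild-type value of -3.30. The Rab GTPase gene rab32a, which serves pigment organelles, rose 7.97-fold (adjusted p = 0.00204), and kita, the receptor gene that melanocytes need for migration and survival, rose 7.99-fold (adjusted p = 0.0318). The fibril gene pmelb was the exception: it was at -1.56 to -0.96 in melanoma and -1.23 to -0.79 in wild-type skin and did not pass (adjusted p = 0.34). The gene zgc:91968, whose other name in RefSeq is mreg (melanoregulin, a protein of melanosome transport), was not on the list and rose 45.8-fold (5.52 ± 0.83, adjusted p = 0.00122). The kita call was lost in turn without each array except melanoma 5 and 6 (adjusted p up to 0.0996).

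Part of the neural crest list rose. Of 23 measured genes 5 rose (21.7%, against 9.34% of all genes) and 0 fell, and the median change was 0.38. Without melanoma 6, 7 rose (30.4%, against 13.7% of all genes) and 0 fell. The marker crestin, a retroelement transcript of the zebrafish crest that is seen again in melanoma of this species, was at 1.29, 2.26, 2.26, 1.93, 2.28 and 1.53 in melanoma 1 to 6 and at the floor in all 3 wild-type arrays. Its change is a lower bound, at least 380-fold (8.57, adjusted p = 0.000403). Melanoma 6 was inside the range of the others for crestin, and mutant skin ranged from -6.27 to 0.25. The crest regulator sox10 was at 1.18 to 2.00 in melanoma 1 to 5, at -0.59 in melanoma 6 and at -4.10 to -1.80 in wild-type skin, a change of 4.05 ± 0.68 (adjusted p = 0.00214).

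Other crest genes were less even. The endothelin receptor gene ednrba rose 7.05-fold (adjusted p = 0.0161) and the transcription factor gene tfap2a 6.48-fold (adjusted p = 0.0373). The homeobox gene dlx2a was high in melanoma 1, 4 and 5 (3.13, 3.96 and 3.89) and at -2.92 in melanoma 3, inside the wild-type range of -3.08 to -2.06, and passed with an adjusted p of 0.0441. These 3 calls were each lost in some fits with 1 array left out, which also leaves fewer samples. The ednrba call was lost without wild-type skin 2 or 3 (adjusted p = 0.0756 and 0.0613). The dlx2a and tfap2a calls were lost without melanoma 1, 2, 4 or 5 or any 1 wild-type array (up to 0.138 and 0.145). Without wild-type skin 2 or 3 the list had 2 raised genes, and 3 without wild-type skin 1 or melanoma 1, 2, 4 or 5.

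**Figure D2:**
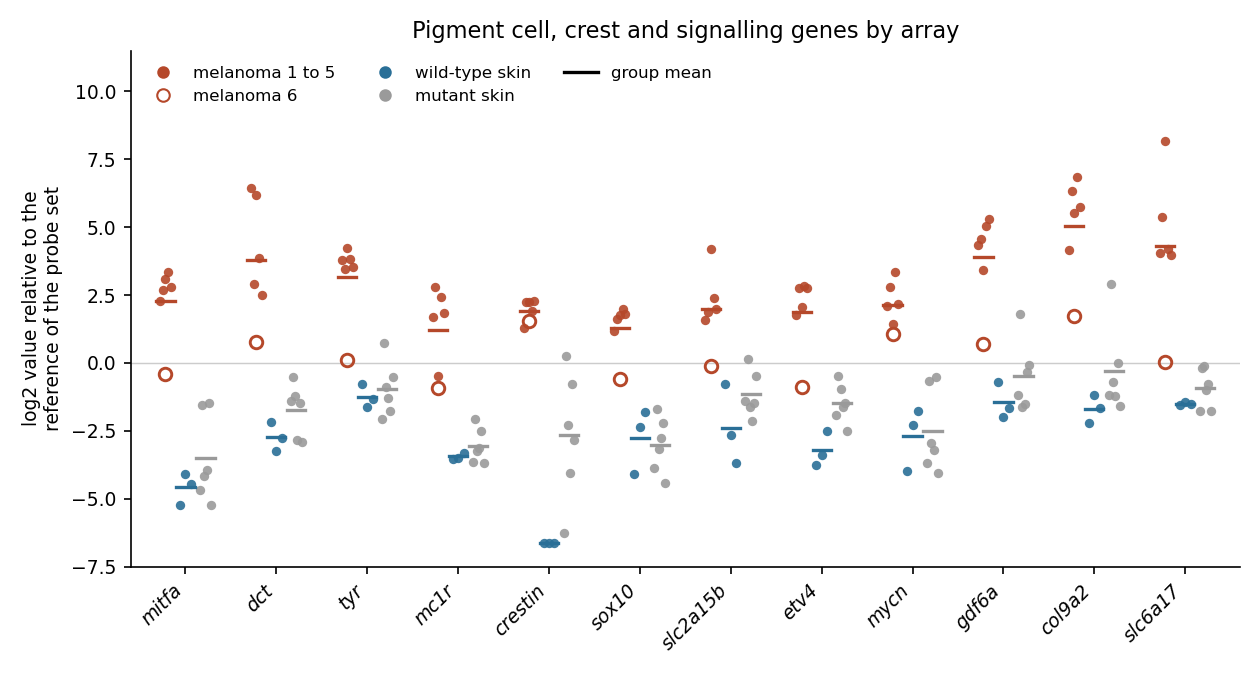
Values of 12 raised genes in each array (log2, relative to the reference of the probe set). Filled red points are melanoma 1 to 5, the open circle melanoma 6, blue points wild-type skin, grey points mutant skin, and bars group means. For each gene melanoma 6 lies above all 3 wild-type arrays, and the 3 wild-type values of crestin sit at the floor of -6.64.

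Genes of the other pigment cells also rose in part. Of 7 xanthophore genes 3 rose (42.9%, against 9.34% of all genes) and 0 fell (4 and 0 without melanoma 6), with a median of 1.71. The sugar transporter gene slc2a15b, which xanthophores need to differentiate, was at 1.57 to 4.21 in melanoma 1 to 5, at -0.13 in melanoma 6 and at -3.70 to -0.79 in wild-type skin (20.7-fold, adjusted p = 0.0029). The gene gch2, for a GTP cyclohydrolase of yellow pteridine synthesis, rose 5.53-fold (adjusted p = 0.00759), but its pair of probe sets changed by 4.41 and 0.52. The receptor gene csf1ra, which macrophages share with xanthophores, rose 6.54-fold (adjusted p = 0.0186), with melanoma 6 at -2.35, inside the wild-type range of -2.57 to -1.98. The related transporter gene slc2a11b had a change of 1.71 ± 0.81 (adjusted p = 0.173).

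Of 5 measured iridophore genes 3 rose (60%, against 9.34% of all genes) and 0 fell. All 3, paics (8.5-fold, adjusted p = 0.00423), impdh1b (6.35-fold, adjusted p = 0.0232) and gart (4.6-fold, adjusted p = 0.019), code for enzymes of purine synthesis, which iridophores use for their crystals and all growing cells use for nucleotides. Of the others, atic had a change of 0.45 ± 0.58 and did not pass (adjusted p = 0.625). In the fit of single probe sets, those of impdh1b changed by 2.58 and 2.75 (adjusted p = 0.093 and 0.018). The csf1ra, gart and impdh1b calls were lost without wild-type skin 2 or 3 (adjusted p up to 0.0822, 0.129 and 0.0827), and that of impdh1b also without wild-type skin 1 (0.0743). Without wild-type skin 2 or 3, 1 iridophore gene rose.

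Targets and inhibitors of MAPK signalling showed rises in the ETS factors. Of 18 measured genes 4 rose (22.2%, against 9.34% of all genes) and 1 fell (5.56%, against 7.48%), with a median of 0.85. Without melanoma 6, 7 rose (38.9%, against 13.7% of all genes) and 1 fell. The ETS factor gene etv4 was at 1.77, 2.77, 2.06, 2.84 and 2.75 in melanoma 1 to 5, at -0.90 in melanoma 6 and at -3.74, -3.39 and -2.49 in wild-type skin. It rose 34.1-fold (5.09 ± 0.71, adjusted p = 0.000986), and all melanomas lay above all wild-type arrays. Its relatives etv5b and etv5a rose 8.64-fold (adjusted p = 0.00122) and 2.95-fold (adjusted p = 0.0256). The phosphatase gene dusp4, an inhibitor of MAP kinases, rose 11.7-fold (adjusted p = 0.00871).

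Not all feedback genes followed. The inhibitor gene spry4 was at 0.66 to 3.13 in melanoma 1 to 5 and at -0.71 in melanoma 6, against -2.31, -0.39 and -0.02 in wild-type skin, and passed with melanoma 6 left out and not with all arrays (adjusted p = 0.0912 with it and 0.0287 without). The phosphatase gene dusp6, another inhibitor, had a change of 0.96 ± 0.49 and did not pass with melanoma 6 (adjusted p = 0.208) or without it (0.0733). The receptor-like inhibitor gene il17rd went the other way: it was at -2.0 to -1.37 in melanoma 1 to 5, at 0.90 in melanoma 6 and at 0.24 to 1.22 in wild-type skin (-1.79 ± 0.55, adjusted p = 0.0385). The early response gene fosab had a change of -2.63 ± 1.2 and did not pass (adjusted p = 0.158). The calls of dusp4 without wild-type skin 2 (adjusted p = 0.0578), of etv5a without wild-type skin 2 or 3 (up to 0.122) and of il17rd without any 1 array but melanoma 6 (up to 0.137) were lost. Raised genes numbered 2 without wild-type skin 2.

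Several of the largest rises lay outside these lists. The cartilage collagen gene col9a2 was at 4.16 to 6.84 in melanoma 1 to 5, at 1.73 in melanoma 6 and at -2.21 to -1.18 in wild-type skin, a 107-fold rise (6.74 ± 1.06, adjusted p = 0.00152). The BMP ligand gene gdf6a was at 3.42 to 5.29 in melanoma 1 to 5, at 0.71 in melanoma 6 and at -2.0 to -0.69 in wild-type skin (40.7-fold, adjusted p = 0.00218). The transcription factor gene mycn, a proto-oncogene of the Myc family, was at 1.42 to 3.34 in melanoma 1 to 5, at 1.06 in melanoma 6 and at -3.97 to -1.78 in wild-type skin (28.2-fold, adjusted p = 0.00207). In all 3 genes melanoma and wild-type skin were apart, and the mutant skin medians of -0.94, -0.75 and -3.06 were below every melanoma. Mutant skin 2, at 2.92 for col9a2 and 1.79 for gdf6a, was above melanoma 6 in both.

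The amino acid transporter gene slc6a17 rose 55.8-fold (adjusted p = 0.00424), with melanoma 3 highest at 8.16 and melanoma 6 at 0.05. The zinc finger gene cxxc5a rose 57.2-fold (adjusted p = 0.000689), the semaphorin and VEGF co-receptor gene nrp2b 33.6-fold (adjusted p = 0.0122), the actin-binding gene ablim3 29-fold (adjusted p = 0.00302) and the synaptic vesicle gene syngr1a 26.7-fold (adjusted p = 0.000452). For nrp2b melanoma 6, at -2.94, lay close to the highest wild-type value of -3.30, and the call was lost without wild-type skin 3 (adjusted p = 0.0503).

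Genes of the lysosome and its proton pump rose broadly. Of 29 measured genes 16 rose and 0 fell (19 and 1 without melanoma 6), against 9.34% of all genes, with a median of 1.55. The pump, a V-type ATPase, acidifies lysosomes and melanosomes. Its subunit gene atp6v1c1b was at 2.06 to 2.70 in melanoma 1 to 5, at 0.42 in melanoma 6 and at -2.21 to -1.42 in wild-type skin (14-fold, 3.81 ± 0.45, adjusted p = 0.000403). The subunit genes atp6v1e1b, atp6v1h and atp6v1d rose 6.65-fold, 6.12-fold and 5.96-fold (adjusted p = 0.000405, 0.00519 and 0.00372). All melanomas were above all wild-type arrays in these 4 genes. The lysosomal membrane gene lamp1b had a change of -2.04 ± 0.69 (adjusted p = 0.0559, and 0.00691 without melanoma 6). Without wild-type skin 2, 9 genes of the list rose.

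The constitutive proteasome, which breaks down tagged proteins, gave small and even changes. Of 38 measured subunit genes 17 rose (44.7%, against 9.34% of all genes) and 0 fell, with a median of 1.1 and quartiles of 0.84 and 1.21. Without melanoma 6, 22 rose (57.9%, against 13.7% of all genes) and 0 fell. The largest rises were in psmd5 (5.42-fold, adjusted p = 0.00549) and psmd3 (5.24-fold, adjusted p = 0.00835), of the regulatory cap, and psmb2 (3.74-fold, adjusted p = 0.00835), of the core, for which melanoma 1 to 5 lay between 0.53 and 1.70, melanoma 6 at -0.21 and the wild-type arrays between -1.47 and -0.55. The activator subunit gene psme1 had a change of 1.73 ± 0.80 (adjusted p = 0.164). The median held without melanoma 6 (1.2), but the count fell when another single array was left out. It was 3 without wild-type skin 2 or 3, 6 without wild-type skin 1, and 9, 9, 11 and 8 without melanoma 1, 2, 4 and 5.

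Of 38 chaperone genes 5 rose (13.2%) and 2 fell (5.26%), near the shares over all genes of 9.34% and 7.48%, with a median of 0.57. The endoplasmic reticulum chaperone gene canx rose 3.77-fold (adjusted p = 0.00207). The genes that fell were hsp90aa1.1, the Hsp90 form of muscle fibres in zebrafish (-6.08 ± 0.99, adjusted p = 0.00185), and ahsa1a, a co-chaperone of Hsp90 (-5.04 ± 0.74, adjusted p = 0.00116). The first was at -2.68 to -1.07 in melanoma 1 to 5, at 2.14 in melanoma 6 and at 4.12 to 5.70 in wild-type skin, the order in which muscle genes also stood (below). For ahsa1a mutant skin was at -0.82 to 2.81, also below wild-type skin at 3.76 to 5.82. The stress chaperone gene hspa1b had a change of -1.75 ± 0.75 (adjusted p = 0.129). Raised chaperone genes numbered 3 without wild-type skin 3.

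Genes of nucleotide synthesis went both ways. Of 14 purine genes 5 rose (35.7%, against 9.34% of all genes) and 2 fell (14.3%, against 7.48%), with a median of 1.04. Among the raised were paics, impdh1b and gart, already counted above as iridophore genes. Without melanoma 6, 5 rose and 3 fell. The genes that fell were adsl (-2.17 ± 0.38, adjusted p = 0.00241) and adss1 (-4.43 ± 0.82, adjusted p = 0.0032), which both act on the branch to AMP, and adss1 is the muscle form of its enzyme in mammals. For adss1 mutant skin was at -1.95 to 2.37, also below wild-type skin at 3.89 to 4.81. For adsl mutant skin was at -0.36 to 0.87, below the lowest wild-type value of 1.13. The part of muscle in these falls was not tested. Of 16 pyrimidine genes 5 rose (31.2%) and 1 fell (6.25%, near the 7.48% of all genes), with a median of 1.2. Without melanoma 6, 6 rose and 1 fell. The nucleoside diphosphate kinase gene nme3 rose 16.3-fold (4.03 ± 0.60, adjusted p = 0.00122). Its relative nme2b.2 was at the floor in melanoma 1, 2 and 5, at 0.64 in melanoma 6 and at 1.31 to 1.48 in wild-type skin, and its change, at most -6.14, is a bound (adjusted p = 0.00777). The gene of the pyrimidine enzyme dihydroorotate dehydrogenase, dhodh, was at -0.99 to 0.38 in melanoma and 0.01 to 0.60 in wild-type skin and did not pass (-0.54 ± 0.43, adjusted p = 0.43). Raised purine genes numbered 1 without wild-type skin 2 or 3, and raised pyrimidine genes 2 without wild-type skin 3 and 3 without wild-type skin 2 or melanoma 1, 2 or 5.

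Of 51 genes of replication and mitosis 4 rose (7.84%, against 9.34% of all genes) and 0 fell (5 and 0 without melanoma 6), with a median change of 1.07. The helicase subunit gene mcm3 rose 7.34-fold (2.87 ± 0.55, adjusted p = 0.00372), with melanoma 1 to 5 at 0.81 to 2.31, melanoma 6 at -0.37 and wild-type skin at -1.99 to -1.14. The level of the whole list ranged from -0.35 to 0.56 for melanoma 1 to 5 and stood at 1.69 for melanoma 6. It was 1.41, -0.54 and -2.21 for wild-type skin 1, 2 and 3, the order of their oocyte levels. The mitotic gene birc5b was at 7.56 in melanoma 6, at -1.27 to -0.83 in melanoma 1 to 5 and at 7.77, 4.99 and 0.60 in wild-type skin 1, 2 and 3, and the kinetochore gene ndc80 was at 1.21, -1.37 and -3.29 in these 3. Without the 7 arrays high in oocyte transcripts, the median change of the list was 2.27. Wild-type skin 3 is then the only wild-type array, so the spread comes from melanoma and mutant skin, and calls are not counted. A fit with melanoma 1 to 5, wild-type skin 3 and all mutant skin arrays compares the same melanoma and wild-type arrays. Its median is therefore the same by construction and is no second check. With the oocyte level as a covariate 44 of the 51 genes rose, a setting in which 1521 of all 8793 genes rose. Neither birc5b nor ndc80 passed with all arrays (adjusted p = 0.258 and 0.0902). The count was 9 without wild-type skin 1, 1 without wild-type skin 2 or 3 or melanoma 1 or 5, and 2 without melanoma 2.

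Of 32 transcription elongation genes 4 rose (12.5%) and 2 fell (6.25%), near the shares over all genes of 9.34% and 7.48%, with a median of 0.48. The genes that fell were tcea3, an elongation factor gene active in muscle of other vertebrates (-4.24 ± 0.59, adjusted p = 0.000986), and ell (-1.79 ± 0.33, adjusted p = 0.00308). The rises of nelfcd, a pausing factor subunit (2.62-fold, adjusted p = 0.0373), and eloa, an elongin subunit (2.57-fold, adjusted p = 0.0342), were lost without most single arrays, including wild-type skin 2 and 3 (adjusted p up to 0.204 and 0.161). No gene of the list rose without wild-type skin 2 or 3, and 1 or 2 rose without each of melanoma 1 to 5. Of 65 ribosomal protein genes limma called 0 in either direction (3 raised and 0 lowered at an unadjusted p under 0.05), and their median was 0.21.

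Glycolysis genes went both ways. Of 27 genes 6 rose (22.2%, against 9.34% of all genes) and 7 fell (25.9%, against 7.48%). The median was -0.36, with quartiles of -2.27 and 1.06, and 7 rose and 8 fell without melanoma 6. Without gapdh, whose direction is in doubt (below), 6 of 26 rose and 6 fell, and 7 and 7 without melanoma 6. Vertebrates have several genes for most glycolytic enzymes, one of them often used by muscle. The phosphoglycerate mutase gene of muscle, pgam2, was at -6.30 to -3.31 in melanoma 1 to 5, at 0.03 in melanoma 6 and at 3.51 to 4.19 in wild-type skin (-8.09 ± 1.39, adjusted p = 0.00226). The other form, pgam1a, was at 1.58 to 2.42, -0.11 and -1.31 to -0.39 in the same order (2.65 ± 0.45, adjusted p = 0.00218). The melanomas were lowest in the one and highest in the other, and melanoma 6 lay between in both.

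Of 10 enzymes with more than 1 measured gene, 4 had a raised and a lowered gene, or 5 with the pair of gapdh and gapdhs. The pairs were assembled after the values were seen. Among aldolases, aldoab changed by -7.14 ± 1.22 and aldocb by 2.73 ± 0.75 (adjusted p = 0.00219 and 0.0228). Among glucose phosphate isomerases, gpib changed by -6.63 ± 1.26 and gpia by 1.85 ± 0.40 (adjusted p = 0.00363 and 0.00721), and here melanoma 6 was the lowest melanoma for gpib, at -1.68. Among phosphofructokinases, pfkma changed by -6.08 ± 1.08 and pfkpa by 3.08 ± 0.85 (adjusted p = 0.00255 and 0.0234). The muscle enolase gene eno3 fell as well (-2.74 ± 0.53, adjusted p = 0.00409). For aldocb and pfkpa, melanoma 6 (-1.16 and -1.05) was inside the wild-type range, and their calls were lost without any 1 wild-type array (adjusted p up to 0.085 and 0.0927), as was that of gpia without wild-type skin 2 (0.0578). Raised genes of the list numbered 1, 2 and 3 without wild-type skin 2, 3 and 1.

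**Figure D3:**
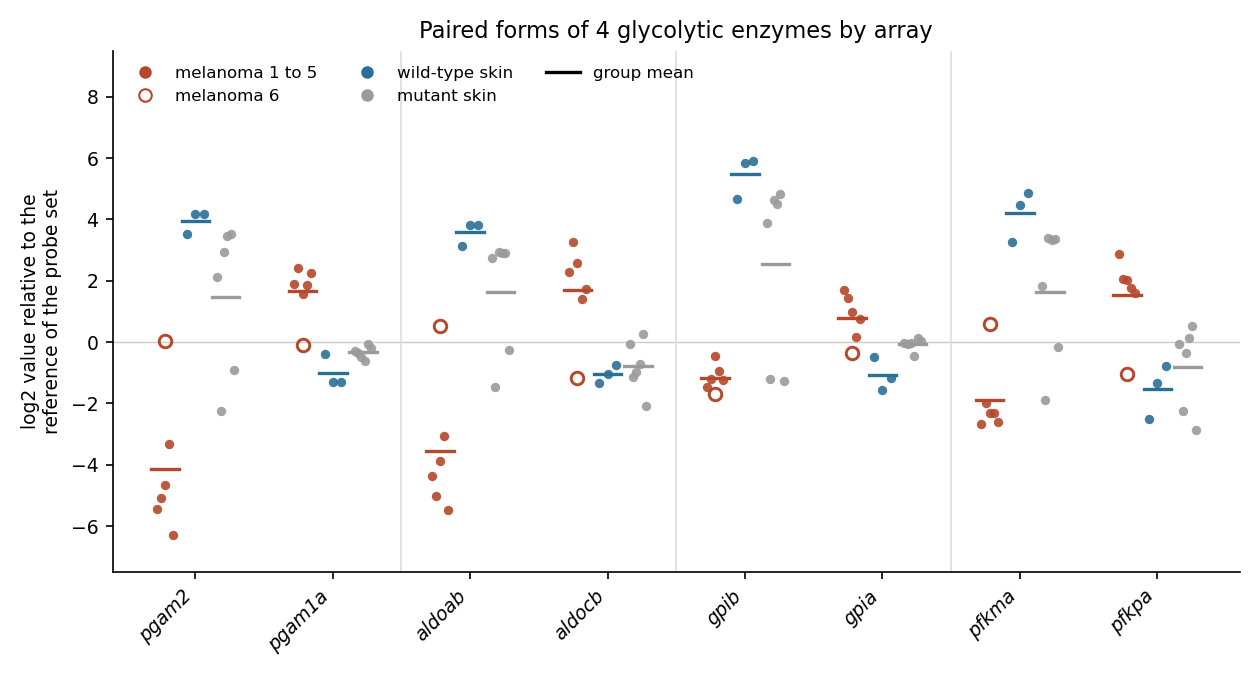
Values of paired genes for 4 glycolytic enzymes in each array (log2, relative to the reference of the probe set), the muscle form first in the mutase, aldolase and phosphofructokinase pairs. Filled red points are melanoma 1 to 5, the open circle melanoma 6, blue points wild-type skin, grey points mutant skin, bars group means. In each pair melanoma 1 to 5 are below wild-type skin for one gene and above it for the other.

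The gapdh gene is given no direction here, since its probe set and the GAPDH control probe sets went opposite ways. Its single probe set was at the floor in melanoma 1, 2 and 5 and at 1.34 to 1.69 in wild-type skin (a change of at most -6.32, adjusted p = 0.00431), but the mean of the array's 3 GAPDH control probe sets was higher in melanoma 1 to 5 (0.09 to 1.61) than in wild-type skin (-2.39 to -0.93), and at -1.46 in melanoma 6. The related gene gapdhs rose 4.65-fold (adjusted p = 0.0373), a call lost without any 1 array but melanoma 6 (up to 0.145). Like the control probe sets, gapdhs was higher in melanoma 1 to 5 (0.1 to 1.41) than in wild-type skin (-2.61 to -1.15), with melanoma 6 at -1.14. Whether the control probe sets read gapdh or gapdhs was not tested.

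Subunits of oxidative phosphorylation, the respiratory chain and ATP synthase of mitochondria, were lower as a group. Of 62 genes 39 fell (37 without melanoma 6) and 3 rose, against 7.48% lowered over all genes, with a median of -1.58 and quartiles of -1.86 and -1.24. The complex I gene ndufa3 was at -1.68 to 0.03 in melanoma and 0.94 to 2.21 in wild-type skin (-2.66 ± 0.53, adjusted p = 0.00466), and ndufb7, of the same complex, changed by -2.38 ± 0.58 (adjusted p = 0.0134). The rises were in subunits of cytochrome oxidase, among them cox6b1 (12.1-fold, adjusted p = 0.00759) and cox4i2 (8.35-fold, adjusted p = 0.0128), the latter known as a form used under low oxygen in mammals. For cox6b1 melanoma 1 to 5 were at 1.97 to 2.57, melanoma 6 at -0.87 and wild-type skin at -3.48 to -1.09.

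The level of the oxidative phosphorylation list was -0.11, -0.41, -0.52, -0.54, -0.14 and -0.80 for melanoma 1 to 6, against 0.14, 1.06 and 1.45 for wild-type skin 1 to 3. The level of the muscle list rose in the same order over the wild-type arrays (1.97, 2.98 and 3.31), and melanoma 6 had the highest muscle level of the melanomas (0.30) with the lowest level of this list. The part of muscle in this result was not tested. In mutant skin against the same 3 wild-type arrays, the median of the list was -1.02. The count rested on wild-type skin 2 and 3: 8 genes fell without the former and 5 without the latter. The ndufb7 call was lost without wild-type skin 2 or 3 (adjusted p = 0.072 and 0.0836) and the cox4i2 call without wild-type skin 1 or 2 (0.0614 and 0.0556).

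Skeletal muscle gave the largest falls of any list. Of 43 genes 39 fell (90.7%, against 7.48% of all genes) and 0 rose, and these counts were the same without melanoma 6. The median was -6.65 (-7.53 without melanoma 6). The nebulin gene neb, for the giant protein along the thin filament, was at -6.27, -5.12, -4.64, -4.76 and -6.13 in melanoma 1 to 5, at 0.52 in melanoma 6 and at 2.49, 3.58 and 3.55 in wild-type skin (-7.61 ± 1.24, adjusted p = 0.00185). Melanoma 6 was between the groups, and no melanoma reached a wild-type array. The same order held for ckmt2a, the mitochondrial creatine kinase of muscle (-8.57 ± 1.70, adjusted p = 0.00446), mybpc2b, a myosin-binding protein of fast fibres (-8.40 ± 1.39, adjusted p = 0.00204), ldb3a, a protein of the Z disc (-8.05 ± 1.31, adjusted p = 0.00183), and tpma, a tropomyosin (-7.93 ± 1.48, adjusted p = 0.00321). In these 4, melanoma 1 to 5 were at -6.59 to -3.10, melanoma 6 at 0.23 to 1.93 and wild-type skin at 2.87 to 5.51.

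Falls of like size that are bounds, since 1 or 2 melanomas were at the floor, were at most -8.70 in myl13 and at most -7.56 in myl10, both myosin light chain genes, at most -8.53 in the myosin-binding gene mybphb, at most -7.63 in the actinin gene actn3b and at most -8.12 in slc25a4, the ADP/ATP carrier of muscle mitochondria (adjusted p = 0.00121 to 0.00253). The sarcoplasmic reticulum channel gene tmem38a changed by -8.15 ± 1.38 (adjusted p = 0.00218) and the creatine synthesis gene gamt by -7.77 ± 1.21 (adjusted p = 0.00148). The gene zgc:66156, for which the tables used here give no name, changed by -7.96 ± 1.17 (adjusted p = 0.00116). The list's level in mutant skin was -0.37 to 2.91, above melanoma 1 to 5 (-4.32 to -2.80). With each of the 9 arrays left out in turn, 34 to 40 genes of the list fell.

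Epidermal genes fell less far than muscle genes, and the keratinocyte level of melanoma 6 was inside the range of the other melanomas. Of 46 keratinocyte genes 20 fell (43.5%, against 7.48% of all genes) and 0 rose, with the same counts without melanoma 6, and the median was -2.51. In 26 of them every melanoma was below every wild-type array, against 9.03% of all genes. The keratin gene krt97 was at -0.01, -4.65, 0.01, -1.41, -2.41 and -0.62 in melanoma 1 to 6 and at 3.26, 4.10 and 3.81 in wild-type skin (-5.23 ± 1.21, adjusted p = 0.00966). Melanoma 2 was the lowest and melanoma 6 was inside the range of the others. The keratin gene krt1-19d changed by -4.15 ± 1.2 (adjusted p = 0.0291), the cell envelope gene ppl by -3.86 ± 1.04 (adjusted p = 0.0214) and the epithelial splicing regulator gene esrp1 by -3.76 ± 1.16 (adjusted p = 0.0389).

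The level of this list was -2.29 to -0.60 over the 6 melanomas, 0.25, 1.53 and 1.29 in wild-type skin 1 to 3 and -1.47 to 1.87 in mutant skin. The number of calls rested on the wild-type arrays: 1 gene fell without wild-type skin 2, 2 without wild-type skin 3, and 10, 11 and 13 without melanoma 1, 2 and 5. The calls of krt97 without wild-type skin 2 (adjusted p = 0.0539) and of krt1-19d, ppl and esrp1 without wild-type skin 2 or 3 (up to 0.178) were lost. Those of krt1-19d and esrp1 were also lost without melanoma 1 or 2, and that of esrp1 without melanoma 5.

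Of 9 ionocyte and mucous cell genes 3 fell (33.3%, against 7.48% of all genes) and 0 rose, with a median of -2.25. The gel-forming mucin genes muc5.2 and muc5.1 were flat and low in melanoma, at -0.96 to -0.39 and -1.01 to 0.37, and spread from 2.49 to 5.05 and from 2.18 to 4.57 in wild-type skin (changes of -4.28 ± 1.12 and -3.82 ± 0.90, adjusted p = 0.0185 and 0.0108). The sodium pump gene atp1b1b, of ionocytes, fell with wild-type skin 1 at 0.06 and the other wild-type arrays at 3.13 and 2.89 (-2.68 ± 0.67, adjusted p = 0.0151). Without wild-type skin 2 all 3 calls were lost (adjusted p up to 0.11), and without wild-type skin 3 those of muc5.2 and atp1b1b.

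Of 17 scale and bone genes 2 fell (11.8%, against 7.48% of all genes). These were twist3 (-3.23 ± 0.84, adjusted p = 0.0177), a transcription factor gene of mesenchyme, and sost (-2.58 ± 0.78, adjusted p = 0.0351), a Wnt inhibitor of bone cells. The phosphate regulator gene phex was at -1.71 to -0.68 in melanoma 1 to 5, at 4.18 in melanoma 6 and at 5.3, 3.40 and 1.92 in wild-type skin, and passed with melanoma 6 left out and not with all arrays (adjusted p = 0.0518 with it and 0.00295 without). Of 29 extracellular matrix genes 1, col9a2, rose (3.45%) and 2 fell (6.9%), below the 9.34% and 7.48% over all genes, with a median of -0.78. The small proteoglycan gene dcn fell (-2.69 ± 0.87, adjusted p = 0.0468), while the collagen gene col1a1a, from -5.65 in melanoma 2 to 0.43 in melanoma 6, did not pass (-2.65 ± 1.44, adjusted p = 0.24). The calls of twist3, sost and dcn were lost without wild-type skin 2 or 3 (adjusted p up to 0.0962, 0.157 and 0.168). Those of sost and dcn were also lost without melanoma 1, 2, 3 or 5, and that of dcn without wild-type skin 1.

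Markers of nerve cells and their sheath went both ways. Of 16 neuron genes 2 rose (12.5%, near the 9.34% of all genes) and 4 fell (25%, against 7.48%). Without melanoma 6, 4 rose and 4 fell (25% each, against 13.7% and 9.22% of all genes). The acetylcholinesterase gene ache, also a gene of the nerve-muscle junction, was at -0.99 to -0.25 in all 6 melanomas and at 4.43, 6.26 and 6.38 in wild-type skin (-6.33 ± 0.84, adjusted p = 0.000754). The vesicle fusion gene snap25a was at -0.90 to 0.32 in melanoma 1 to 5, at 1.33 in melanoma 6 and at 3.82, 3.17 and 5.1 in wild-type skin (-3.97 ± 0.48, adjusted p = 0.000405), and its mutant skin median was -0.38. The vesicle protein gene sypa rose 14-fold (3.81 ± 0.77, adjusted p = 0.00477), and in it and syngr1a every melanoma was above every wild-type array. The second SNAP-25 gene, snap25b, was at 1.53 to 3.22 in melanoma 1 to 5 and at -1.93 in melanoma 6, below wild-type skin (-0.55 to 0.52), and did not pass with all arrays but did without melanoma 6 (adjusted p = 0.169 with it and 0.00113 without).

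Of 12 glia genes 5 fell (41.7%, against 7.48% of all genes) and 1, sox10, rose (8.33%, near the 9.34%), with a median of -1.75. The myelin gene mbpa was at -4.92 to -2.40 in melanoma 1 to 5, at 0.45 in melanoma 6 and at 3.03 to 3.96 in wild-type skin (-6.49 ± 1.1, adjusted p = 0.00218), and the glial calcium-binding gene s100b changed by -3.44 ± 0.73 (adjusted p = 0.00605). Without wild-type skin 3 the s100b call was lost (adjusted p = 0.0503), and 1 glia gene and 2 neuron genes fell.

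The change with the smallest adjusted p among the named genes was in a probe set annotated as mhc1ufa, an MHC class I gene. It was at -0.60, 0.19, -0.32, -0.65, -0.69 and -0.64 in melanoma 1 to 6 and at 7.64, 8.71 and 8.77 in wild-type skin (-8.83 ± 0.34, adjusted p = 1.08e-09). Mutant skin was at -0.88 to 0.35, so all 12 arrays of the mitf-BRAFV600E line were low and the 3 of the Tu strain high. The gene name is uncertain: RefSeq lists this symbol as a synonym of tapbp.1, the gene of the peptide loader tapasin, whose own probe set rose 2.76-fold (adjusted p = 0.0295), with a mutant skin median of -1.48 beside -1.86 to -0.77 in wild-type skin.

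In 2 further raised genes of immune function, mutant skin had a median at melanoma levels. The MHC class II gene mhc2daa was at -0.25 to 1.53 in melanoma and -5.03 to -4.30 in wild-type skin (37.6-fold, adjusted p = 0.000899), and mutant skin had a median of 1.36. The gene lgals3bp.1, for a secreted galectin-binding protein, was at 0.92 to 2.99 in melanoma 1 to 5, at -2.04 in melanoma 6 and at -4.85 to -2.89 in wild-type skin (38.8-fold, adjusted p = 0.009), with a mutant skin median of 1.05. For lgals3bp.1 mutant skin 2 and 6 were low, at -2.25 and -3.48, below every melanoma. The immunoproteasome genes replace core subunits for antigen processing and lie beside class I genes in zebrafish. Without melanoma 6, psmb8a, psmb9a and psmb13a changed by -2.48, -2.67 and -2.12 and all passed. The subunit gene psmb9a was at -3.64 to -2.47 in melanoma 1 to 5, at -1.50 in melanoma 6, at -0.78 to -0.13 in wild-type skin and at a median of -3.23 in mutant skin (-2.40 ± 0.52, adjusted p = 0.00674). Its neighbour psmb13a fell (-1.89 ± 0.59, adjusted p = 0.0401), and psmb8a passed without melanoma 6 but not with it (adjusted p = 0.0131 and 0.118). The gene psmb10 had a change of the other sign that did not pass (2.76 ± 1.26, adjusted p = 0.159), with melanoma 2 and 3 at -4.10 and -3.07 and the other melanomas at -0.49 to 1.07. The mutant skin median was -2.94 for psmb13a, beside -2.30 to 0.20 in wild-type skin, and -3.59 for psmb8a, beside -2.43 to -0.24. The constitutive subunit gene psmb2, which rose in melanoma (above), had a mutant skin median of -0.89. The calls of tapbp.1 without melanoma 1 or 2 or any 1 wild-type array (adjusted p up to 0.124) and of psmb13a without melanoma 1, 2, 4 or 5 or wild-type skin 2 or 3 (up to 0.212) were lost.

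**Figure D4:**
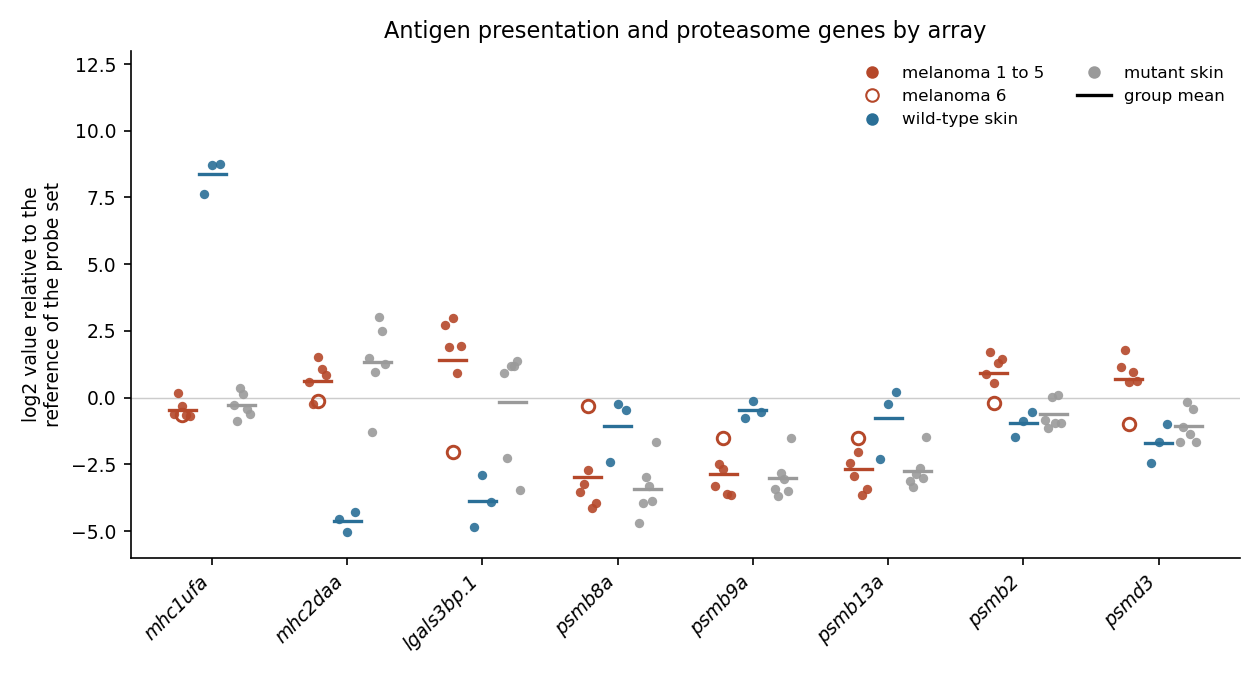
Values of antigen presentation and proteasome genes in each array (log2, relative to the reference of the probe set). Filled red points are melanoma 1 to 5, the open circle melanoma 6, blue points wild-type skin, grey points mutant skin, bars group means. For mhc1ufa the 12 arrays of melanoma and mutant skin lie at -0.88 to 0.35 and the 3 of wild-type skin at 7.64 to 8.77.

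Interferon and antigen presentation genes as a list gave 2 raised and 2 lowered of 18 (11.1% each, near the 9.34% and 7.48% over all genes), with a median of 0.95. Without melanoma 6, 5 rose and 3 fell (27.8% and 16.7%, against 13.7% and 9.22% of all genes). The interferon-induced ubiquitin-like gene isg15 was at 1.15 to 1.81 in melanoma 1 to 5, at -1.73 in melanoma 6 and at -4.46 to -2.03 in wild-type skin (17.5-fold, adjusted p = 0.0147). The interferon regulator genes irf7 and irf1b did not pass with all arrays but did without melanoma 6 (changes then of 3.95 ± 1.01 and 3.63 ± 0.93, adjusted p = 0.0122 and 0.0129, against 0.0632 and 0.0584 with it). The isg15 call was lost without wild-type skin 1 or 2 (adjusted p = 0.0623 and 0.061), where 0 genes of the list rose.

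Of 23 myeloid genes 3 rose and 1 fell, near the shares over all genes (9.34% and 7.48%), with a median of 1.23. Without melanoma 6, 6 rose and 1 fell, against 13.7% and 9.22% of all genes. In mutant skin against the same wild-type arrays the median was 1.03. The progranulin gene grna.1 rose 15.7-fold (adjusted p = 0.00274) and the macrophage scavenger receptor gene marco 7.95-fold (adjusted p = 0.0315), beside csf1ra, given above. The lysozyme gene lyz, a marker of neutrophils and macrophages, was at -3.60 to -1.88 in melanoma 1 to 5, at 1.67 in melanoma 6 and at 0.22 to 1.80 in wild-type skin (-3.28 ± 1.02, adjusted p = 0.0391). For marco and lyz melanoma 6 was inside the wild-type range, and their calls were lost without melanoma 1, 2, 3 or 4 or any 1 wild-type array, and that of lyz also without melanoma 5 (adjusted p up to 0.121 and 0.164). Without wild-type skin 2 or 3 the list had 1 raised gene.

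Lists of other cells gave few or no calls in limma. Of 7 lymphoid, 12 endothelial, 14 erythrocyte and 17 exocrine pancreas genes 0 passed. At an unadjusted p under 0.05, 0 lymphoid, 2 endothelial, 2 erythrocyte and 0 pancreas genes were counted. The endothelial receptor gene kdrl had a change of -2.01 ± 0.70 (adjusted p = 0.0645), and 2 endothelial genes fell without wild-type skin 1. The beta globin gene hbba2 spread from -3.81 in melanoma 1 to 2.97 in melanoma 6 and from 0.47 to 4.15 in wild-type skin (adjusted p = 0.318). Of 26 liver and yolk genes 1 fell (3.85%, against 7.48% of all genes). This was the retinol carrier gene rbp4 (-3.61 ± 0.98, adjusted p = 0.0215), which skin expresses as well in zebrafish. Its call was lost without wild-type skin 2 or 3 (adjusted p = 0.089 and 0.0995). Of 34 oocyte genes 0 passed with all arrays (2 lowered at an unadjusted p under 0.05), and 10 were lowered without melanoma 6 (29.4%, against 9.22% of all genes).

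Genes that mark positions on the body gave a division among the melanomas themselves. Hox genes are expressed in nested domains from head to tail, the members with high numbers nearest the tail, and adult skin cells keep much of that pattern. Of 57 Hox, Tbx and Zic genes 0 rose and 8 fell (14%, against 7.48% of all genes), with a median of -0.38. Without melanoma 6, 6 rose and 6 fell (10.5% each, near the 13.7% and 9.22% of all genes). The gene hoxc13a was at 5.99, 5.47, 2.66 and 4.10 in melanoma 2 to 5, and at -0.67 in melanoma 1 and -0.44 in melanoma 6, beside -0.17, -0.17 and 0.14 in wild-type skin. The gene hoxc12b was at 2.5 to 5.65 in melanoma 2 to 5, at -0.93 and -1.22 in melanoma 1 and 6, and at -1.14 to -0.80 in wild-type skin. The gene hoxc11b had the same order, at 3.13 to 4.21 in melanoma 2 to 5 and -0.43 and -0.26 in melanoma 1 and 6. In these 3 genes, 4 melanomas stood above all wild-type arrays and 2 did not.

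With all arrays hoxc13a, hoxc12b and hoxc11b did not pass (adjusted p = 0.129, 0.0708 and 0.0891). They passed without melanoma 6 (adjusted p = 0.0336, 0.0114 and 0.0176) and likewise without melanoma 1 (0.0447, 0.0282 and 0.0257). The gene hoxd9a, active in fins and the rear trunk, was at 0.74 to 2.88 in melanoma 1 to 5, at -2.74 in melanoma 6 and at -2.07 to -0.14 in wild-type skin, and passed without melanoma 6 but not with it (0.00233 against 0.102). So did tbx2b (0.00359 against 0.0505), which includes melanoma 1 at 0.97 among the high arrays. In the other direction, zic1, a regulator of the back of the trunk in fish, was at -0.93 to 0.48 in melanoma and 2.48, 3.96 and 4.79 in wild-type skin (-4.24 ± 0.48, adjusted p = 0.000403), with mutant skin at 0.09 to 1.51. The trunk gene hoxb9a fell (-3.48 ± 0.71, adjusted p = 0.00505). The labels give the side of the body for wild-type skin and no site for the melanomas. Lowered genes of the list numbered 3 without wild-type skin 2 or 3 and 5 without melanoma 1, 4 or 5, and the 3 genes hoxc11b, hoxc12b and hoxc13a rose without melanoma 1.

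**Figure D5:**
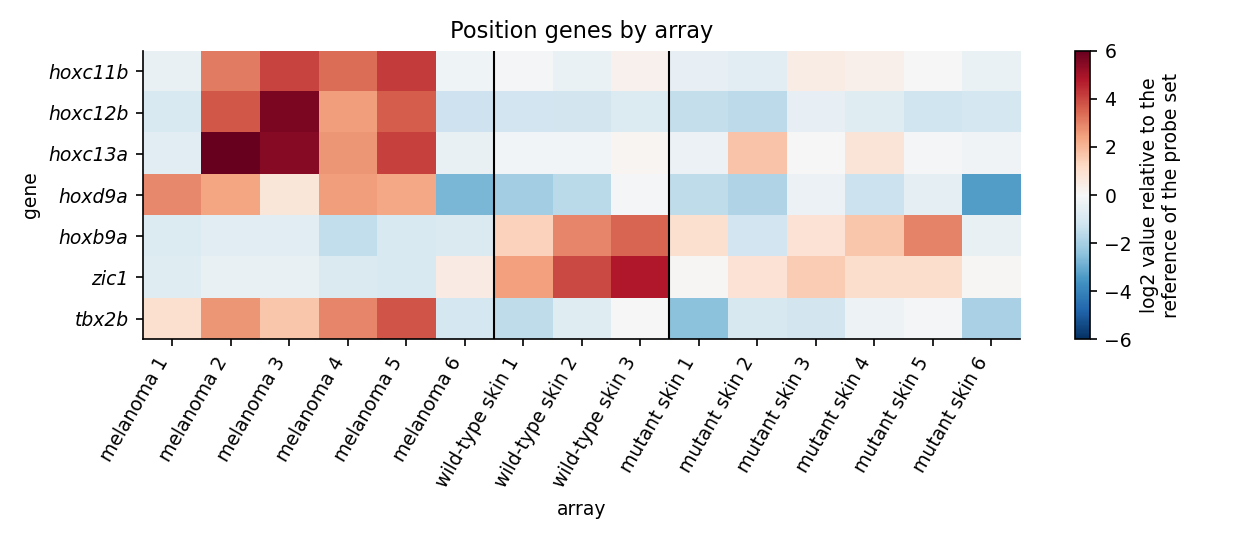
Values of 7 position genes in each of the 15 arrays as colours (log2, relative to the reference of the probe set, from blue at -6 to red at 6), with lines between melanoma, wild-type skin and mutant skin. The genes hoxc11b, hoxc12b and hoxc13a are red in melanoma 2 to 5, from 2.5 to 5.99, and pale in melanoma 1 and 6.

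Leaving out melanoma 6 added 569 calls and removed 32. Of the added genes 392 were higher in melanoma and 177 lower, and 0 genes passed in both fits with opposite signs. In the largest added rises, melanoma 6 lay inside the wild-type range or below it. The phosphate transporter gene slc20a1a was at 1.1 to 3.41 in melanoma 1 to 5 and at -3.83 in melanoma 6 (adjusted p = 0.00397 without it and 0.0928 with it), glb1l, a galactosidase-like gene, at 1.21 to 2.98 and at -3.25 (0.000309 and 0.0521), and the growth factor receptor gene fgfr4 at 1.76 to 5.31 and at -0.72 (0.00395 and 0.0572). The circadian repressor gene bhlhe41 was at -0.12 to 1.38 and -3.16 (0.0432 and 0.141).

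The largest added falls were in genes of the egg coat and oocyte. The egg coat gene zp2.6 was at 8.06 in melanoma 6, at -3.03 to -1.31 in melanoma 1 to 5 and at 8.05, 6.44 and 2.41 in wild-type skin 1, 2 and 3 (a change of -8.18 ± 1.89 without melanoma 6, adjusted p = 0.00688). The further egg coat genes zp3.1, zpax4 and zpax1, the claudin gene cldnd and the amino acid transporter gene slc7a1b likewise had melanoma 6 and wild-type skin 1 highest, with 7.62 to 8.94 in melanoma 6 and changes of -7.46 to -6.96 without it (adjusted p = 0.0114 to 0.0275). They followed the oocyte level of the arrays, to which zp2.6 and cldnd themselves contribute as members of the oocyte list. With all arrays none of these 6 passed (adjusted p = 0.0993 to 0.187), as the rule that chose them required.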

How the data were processed

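Total RNA of 15 samples was extracted with Trizol and hybridised to Affymetrix zebrafish arrays, per the labels. The deposited table holds 1 log2 value per probe set and array, made by the authors with GCRMA, a background correction and normalization, per the submitters' processing notes, with no version. The reference of the values is not given in the sources used here. The floor of -6.64 (log2 of 0.01) was reached by 85 values in 35 probe sets. Of 15617 probe sets 115 controls were left out. Probe sets with exactly 1 symbol in the platform annotation were averaged per gene (10795 probe sets, 8793 genes, with symbols checked against RefSeq for 10711), while 135 had several symbols and 4572 none. No filter was applied, since the level is relative.

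With limma 3.58.1 in R 4.3.3 (lmFit, eBayes), 1 model of 3 groups was fitted to all 15 arrays (12 residual degrees of freedom), and melanoma minus wild-type skin was tested on both sides, with Benjamini-Hochberg adjusted p under 0.05 over all genes called. Errors are standard errors of this fit. A list's level in an array averages its members after each gene was centred on its mean of the 15 arrays. The steps were tested on simulated data. Python 3.11.15 and matplotlib 3.10.9 made the figures. Alternatives were other normalizations, weights and variance priors, other sets of arrays, the oocyte level as a covariate, the title number as a block, and leaving out each array.

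The comparison and the 32 lists (807 of 1149 genes measured) were chosen with earlier results of these data known, and 1 list with the genes that go with it is not reported here. Named genes are the 15 largest changes in each direction that passed with and without melanoma 6 without overlap, the 8 largest in each direction that passed only without it, no more than 4 members of any list, the ones with the largest change, and 10 genes fixed by name, not all reported here. Not all of these are described: 2 uncharacterised genes lowered without melanoma 6 are left out, as are further list members, mostly of lists with few or no calls. Chosen outside this rule, after their values were seen, were kita, rab32a, pmelb, tfap2a, etv5a, il17rd, dusp6, spry4, lamp1b, psmb8a, psmb9a, psmb13a, tapbp.1, adsl, pfkma, eno3, aldocb, pgam1a, gapdhs, gpia, pfkpa, sost, snap25b, hoxc11b, hoxd9a and tbx2b.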

Additional observations from a re-analysis of the deposited data

Results flagged for a closer look

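The spread of the 6 melanoma arrays was looked at for the 142 genes named. In 40 of them 1 array lay apart from the rest, the gap to its nearest neighbour divided by the range of the 6 arrays being above Dixon's limit of 0.625. Chance gives about 1 in 20, and over all 8793 genes 1366 (15.5%) were above the limit. The array apart was melanoma 6 in 38 of the 40 genes. Part of the named genes were chosen because they passed only without melanoma 6, so this number was partly set by the choice of genes.

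Among pigment, signalling and other raised genes this ratio was 0.712 in mitfa, 0.808 in tyr, 0.685 in sox10, 0.713 in etv4, 0.684 in ablim3, 0.72 in atp6v1c1b, 0.678 in canx, 0.815 in isg15, 0.826 in cox6b1, 0.666 in pgam1a and 0.677 in pfkpa. Melanoma 6 was the lowest melanoma in each. It was also the lowest in snap25b (0.674), slc20a1a (0.681), glb1l (0.715) and bhlhe41 (0.669).

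Melanoma 6 was the highest melanoma for muscle genes, with ratios of 0.787 in ckmt2a, 0.714 in ldb3a, 0.804 in tpma, 0.638 in actn3b, 0.759 in neb, 0.859 in mybphb, 0.731 in tmem38a, 0.649 in gamt, 0.784 in pfkma and 0.665 in hsp90aa1.1. It was highest as well in il17rd (0.785), psmb8a (0.626), phex (0.826), s100b (0.784), zic1 (0.652) and lyz (0.674).

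For genes of the oocyte and egg coat, melanoma 6 stood above the other melanomas with ratios of 0.845 in zp2.6, 0.859 in zp3.1, 0.965 in zpax4, 0.902 in zpax1, 0.848 in cldnd, 0.962 in slc7a1b and 0.95 in birc5b.

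In the 2 remaining genes another array was apart. Melanoma 5 was the highest melanoma for ndufb7 (0.794), at 0.80 against -0.77 to -0.44 in the others. Melanoma 4 was the lowest for hoxb9a (0.654), at -1.48.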

How the results depend on the processing

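Of the 142 named genes 106 passed with all arrays, all 106 also passed without melanoma 6, and 0 changed sign past the threshold. There were 61 that passed under each of the 21 other settings in which they were tested. Genes with a value at the floor are absent from the setting without such probe sets. The count of changed genes (1479) lay between 568 and 2016 with 1 array left out, and that of probe sets (2143) between 848 and 3097. Without wild-type skin 2 the counts were 568 genes and 860 probe sets, and without wild-type skin 3 they were 576 and 848. With melanoma 1 to 5 against wild-type skin 3 they were 637 and 927. More features passed with array quality weights (3882 and 8548, in a weight estimate that stopped before converging), with the oocyte level as a covariate (2839 and 4354), and with only the 9 arrays compared and melanoma 6 left out (2596 and 4147), an alternative chosen after seeing the data. Between melanoma and wild-type skin of the same title number, correlations of deviations were -0.201, -0.062 and 0.386 for numbers 1, 2 and 3. These are too few to tell whether the numbers pair samples, and melanoma and mutant skin of the same number were not compared in this way. With the number as a replicate block 1709 genes and 2747 probe sets passed. The causes of these shifts were not tested, except that leaving out arrays also leaves fewer samples. The 3 wild-type arrays differ in oocyte, muscle and keratinocyte level and limit each count, tissue and genotype cannot be told apart, and values at the floor give bounds.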
